A study of Mus musculus with 36 samples.

Results

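The data compare lung macrophages of Scnn1b-Tg mice (Tg) with those of wild-type littermates (WT) at postnatal day (PND) 10, an age at which mucus obstruction is already established in this line. The samples were chosen by their titles and number 8 of the 36 arrays of the series, 4 of Tg and 4 of WT pups. Both genotypes were male mice of a C57BL/6N congenic line in specific-pathogen-free (SPF) housing, and they differ in 1 transgene, which raises expression of Scnn1b, a subunit (beta) of the sodium channel ENaC, from a club cell secretory protein promoter. The transgene is therefore driven in airway club cells and not in the macrophages that were measured. Cells were recovered by lung lavage, and those bound by a Ly-6G antibody were removed on magnetic columns before RNA was extracted. Each PND 10 array held amplified RNA, 12 ng, of cells pooled from 3 pups of 1 genotype, so that the spread between arrays is a spread between pools and not between single pups.

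ENaC takes up sodium from the liquid that covers the airway, and water follows it. Where uptake is too high the surface dries, mucus thickens and sticks, and the cells that patrol the surface meet trapped particles, microbes and dying cells. Alveolar macrophages are the resident phagocytes of the airspace. They clear surfactant, debris and dead cells, and when they sense damage or microbes they release chemokines and cytokines and remodel matrix. Most descriptions of macrophage activation use a pair of poles, a classical one driven by microbial products and interferon-gamma, and an alternative one driven by interleukin-4 and interleukin-13.

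Each array (Affymetrix Mouse Gene 1.0 ST) gave 35556 values, 1 per group of probes called a feature here, and 28940 features were analysed. The values are on a log2 scale, so that a difference of 1 is a 2-fold change, and ran from 1.86 to 13.23. Array medians at PND 10 lay between 3.73 and 3.85. A group mean at or below 3.85 is called near background here. A fold against such a level is a lower bound only in that the floor can hide part of a change. It still carries the error of its estimate, and "at least" before a fold is used in this sense. The number of arrays, 4 in each genotype, limits the precision, and an exact permutation test of 4 against 4 cannot give a two-sided p below 0.0286. Tests were therefore those of a limma model over all 36 arrays, with adjustment over the 28940 features. In this model the variance of each feature is pooled over groups. The other groups, of both genotypes, were newborn pups, PND 3 pups and PND 42 mice in SPF or germ-free housing. The PND 42 arrays held single mice, so that the variance draws on other ages, another housing and unpooled samples. In a fit on the 8 PND 10 arrays alone, 34 of the 114 named genes that passed were lost. The word "rose" or "fell" is used of a gene whose adjusted p reached 0.05, and a feature is "called" where it also changed by 2-fold.

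The cells carried the markers of their label. Of 33 measured genes of alveolar macrophage identity none (0) was near background in both genotypes, and the mean over the list was 8.95 to 9.26 in the Tg pools and 9.28 to 9.46 in the WT pools. Car4, a carbonic anhydrase that marks these cells, averaged 11.25 ± 0.05 in Tg pools and 11.18 ± 0.19 in WT pools (SD, n = 4 each), and Chil3, a chitinase-like protein, averaged 11.95 ± 0.27 in Tg and 11.92 ± 0.28 in WT pools. Markers of T cells, B cells, endothelium, fibroblasts and muscle lay near background for most members, with list means of 3.25 to 3.71 in Tg pools and 3.13 to 3.68 in WT pools. Scnn1b, which checks whether transgene RNA came along with the lavage cells, read 3.26, 4.10, 3.94 and 3.98 in Tg pools 1 to 4, against 3.35, 3.10, 3.10 and 3.29 in WT pools. These levels overlap and did not differ by the test (0.61 ± 0.59 on the log2 scale, SE, adjusted p = 0.813), so that Scnn1b does not check the labels here. Scgb1a1, the club cell secretory protein itself, read 5.64 to 6.93 in Tg pools and 4.72 to 7.86 in WT pools, and the groups overlap.

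Of the 28940 features, 184 (0.636%) were called at PND 10. Higher in Tg were 163 (0.563%) and lower were 21 (0.0726%). By the adjusted p alone 327 features (1.13%) rose and 126 (0.435%) fell, and 3206 passed an unadjusted p of 0.05. The median change over all features was 0.01 on the log2 scale. Of the 163 rises, 157 had all 4 Tg pools above all 4 WT pools, against 4.17% of all features, and of the 21 falls, 20 had all Tg pools below all WT pools, against 2.9% of all features. The calls were made on these same pools, so that this separation describes them and adds no further support. Among the rises the WT pools varied more than the Tg pools. The mean over the 163 features was 6.98 to 7.06 in the 4 Tg pools and 5.03 to 5.49 in the 4 WT pools, and WT pool 4 was the highest WT pool for 76 of them and WT pool 2 the lowest for 82.

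The largest rise was that of Inhba, which encodes the subunit of activin A, a secreted member of the TGF-beta family. Inhba read 8.87, 9.06, 8.67 and 8.94 in Tg pools 1 to 4, against 3.98, 3.55, 3.62 and 4.89 in WT pools. No Tg pool came near the WT range, and the rise was 29.3-fold (a log2 change of 4.87 ± 0.49, SE, adjusted p = 3.08e-07). Mmp14, the membrane-bound metalloproteinase that cleaves collagen and activates other metalloproteinases at the cell surface, read 8.59, 8.68, 8.78 and 8.37 in Tg pools, against 5.0, 3.66, 3.94 and 4.45 in WT pools. The groups do not overlap, and the rise was 20.3-fold (adjusted p = 8.97e-08). Npy, a peptide best known as a neurotransmitter, read 8.19, 7.99, 7.46 and 7.76 in Tg pools, against 3.83, 3.41, 3.78 and 4.12 in WT pools. Its WT mean of 3.79 was near background, so that the 16.8-fold rise (adjusted p = 1.33e-06) may be understated. Its 95% interval was 3.14 to 4.99 on the log2 scale. Of the 8 measured genes of the neuropeptide Y system, the peptides, their receptors and dipeptidyl peptidases, Npy was the 1 that rose, and 7 were near background in both genotypes. Over all genes, with 1 feature each, 1.47% rose and 0.569% fell by the adjusted p, and the counts of members in the lists are set beside these shares.

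Other genes among the 20 largest rises have unlike functions, and those of chemokines, receptors, uptake and metals are described with their lists. Acod1, the mitochondrial enzyme that makes itaconate in activated macrophages, averaged 7.39 ± 0.27 in Tg pools and 3.63 ± 0.26 in WT pools (SD, n = 4 each), a rise of at least 13.6-fold (adjusted p = 5.36e-05). H2-M2, a non-classical class I molecule, averaged 7.22 ± 0.10 in Tg and 3.63 ± 0.35 in WT pools, at least 12.1-fold (adjusted p = 1.15e-08). It was the 1 of 24 measured class I and class I-like genes that rose. Pmp22, a membrane protein of myelin and of growth-arrested cells, read 8.99, 8.34, 8.40 and 8.31 in Tg pools, against 7.04, 3.92, 4.73 and 4.54 in WT pools, so that WT pool 1 lay closest to the Tg pools (10.9-fold, adjusted p = 0.000351). Lrg1, a secreted leucine-rich glycoprotein, rose 8.49-fold and Akr1b8, an aldo-keto reductase, 6.48-fold (adjusted p = 4.78e-05 and 3.01e-06). Met, the receptor of hepatocyte growth factor, averaged 6.81 ± 0.17 in Tg and 4.02 ± 0.18 in WT pools (6.95-fold, adjusted p = 1.77e-06), and Il7r, a subunit of the interleukin-7 receptor, averaged 9.17 ± 0.18 in Tg and 6.40 ± 0.99 in WT pools (6.85-fold, adjusted p = 6.64e-05). Each of the 20 largest rises kept an adjusted p of 0.05 in all 8 fits that left out 1 of the 8 pools, and in all 20 the groups do not overlap.

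**Figure D1:**
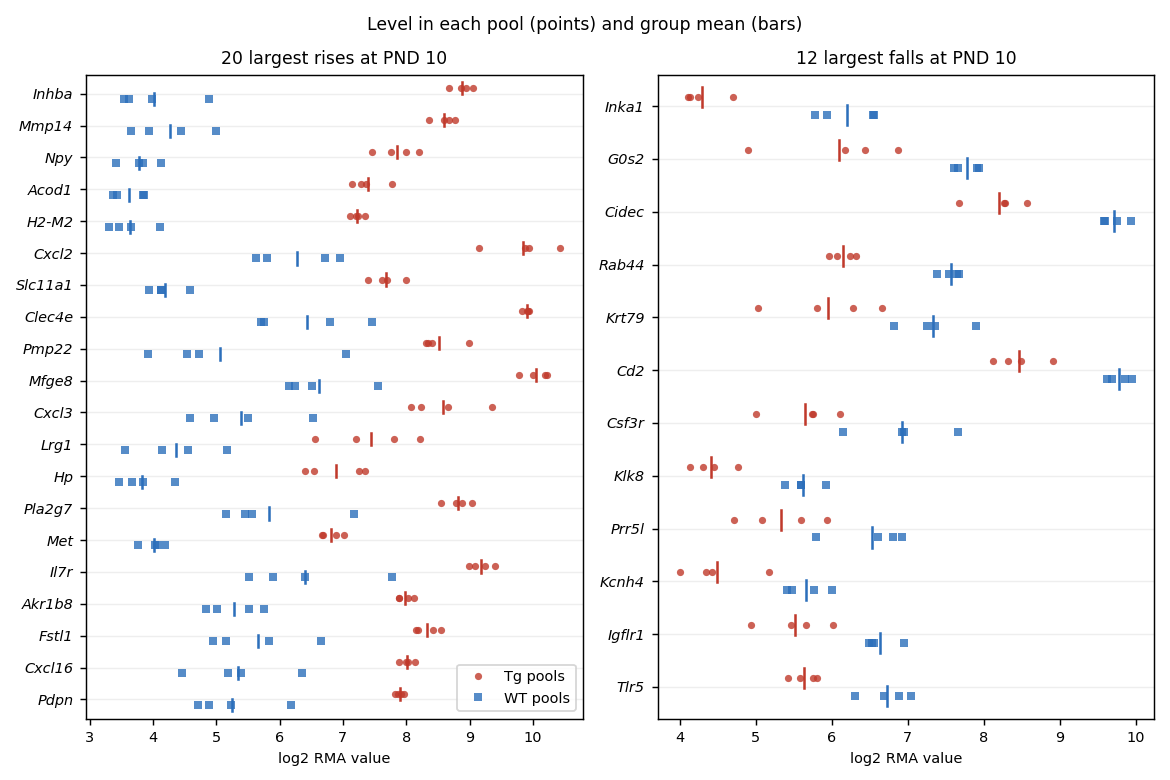
Log2 level of the 20 largest rises (left) and the 12 largest falls (right) in each pool at PND 10, Tg points above WT points for each gene and vertical ticks at the group means (n = 4 pools each). All 20 rises are separated, from Inhba at 29.3-fold to Pdpn at 6.24-fold, and the falls are smaller, from 3.76-fold for Inka1 to 2.13-fold for Tlr5.

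Chemokines that draw neutrophils were among the strongest responses. Of 7 measured CXC chemokines of the list drawn up for them, 3 rose, all of them past 2-fold. The median change over the 7 was 1.00 on the log2 scale, the value of a member that did not pass. The list also holds Cxcl15 and the platelet chemokine Pf4, and neither rose. Cxcl2 read 9.93, 9.16, 9.88 and 10.43 in Tg pools, against 5.62, 6.96, 6.72 and 5.80 in WT pools. Every Tg pool was higher than every WT pool (11.9-fold, adjusted p = 2.45e-07). Cxcl3 read 8.08, 8.24, 8.65 and 9.36 in Tg pools, against 4.59, 4.96, 5.50 and 6.52 in WT pools (9.11-fold, adjusted p = 0.000178). For Cxcl3 pool 4 was the highest of its group in both genotypes. Cxcl1 read 5.33, 5.23, 5.82 and 7.13 in Tg pools, against 3.72, 3.76, 4.19 and 3.92 in WT pools, and Tg pool 4 again stood highest (3.94-fold, adjusted p = 0.00219). All 7 genes lie in 1 cluster on chromosome 5, yet Cxcl5 and Ppbp were near background in both genotypes.

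Cxcl1, Cxcl2 and Cxcl3 rose together, and their upstream windows are shown because all 3 hold a motif that reads GGG, any 2 bases, then TTTCC, a form of the site bound by the transcription factor NF-kB (on the other strand, GGAAA, any 2 bases, then CCC). The windows are the 250 bases before the annotated start, 5′ to 3′ on the plus strand of GRCm38.p6, from RefSeq, with matches in capitals.
Cxcl1, chr5:90890995-90891244: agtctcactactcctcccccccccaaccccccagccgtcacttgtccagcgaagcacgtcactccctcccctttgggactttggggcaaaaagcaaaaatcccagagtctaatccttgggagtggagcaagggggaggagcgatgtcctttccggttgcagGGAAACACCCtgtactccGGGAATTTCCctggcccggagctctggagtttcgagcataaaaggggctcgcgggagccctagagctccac
Cxcl2, chr5:90903649-90903898: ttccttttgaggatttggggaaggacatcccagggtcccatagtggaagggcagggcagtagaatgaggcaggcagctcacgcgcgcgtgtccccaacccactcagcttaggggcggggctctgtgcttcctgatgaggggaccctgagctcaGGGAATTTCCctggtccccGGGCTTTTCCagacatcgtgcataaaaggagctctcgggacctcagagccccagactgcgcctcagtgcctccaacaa
Cxcl3, chr5:90785851-90786100: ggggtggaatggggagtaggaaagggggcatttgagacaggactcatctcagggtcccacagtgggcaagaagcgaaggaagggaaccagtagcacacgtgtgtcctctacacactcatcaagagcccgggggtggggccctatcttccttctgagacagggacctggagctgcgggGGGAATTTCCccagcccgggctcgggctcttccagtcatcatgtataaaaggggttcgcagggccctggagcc
Cxcl1 has 1 match on each strand, which begin 89 and 71 bases before the start. Cxcl2 has 2 on the same strand at 97 and 78 bases, and Cxcl3 has 1 at 73 bases. Over all 32851 windows of the RefSeq table, 464 (1.41%) hold the motif on either strand. Among genes called higher in Tg, a window was at hand for 117 of 147 genes sought, and 5 of their 148 windows (3.38%) hold it, those of Cxcl1, Cxcl2, Cxcl3, Ccl9 and the transporter gene Slc6a12. This share counts the 3 Cxcl genes that were shown for holding the motif, so that it is no test of the motif among the rises. Among the 19 windows of genes called lower none (0) does. A match is a run of letters in a window and not a measured site.

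Other chemokines rose in smaller number. Ccl3, which draws monocytes and neutrophils, read 10.11, 9.46, 9.86 and 9.78 in Tg pools, against 6.53, 7.69, 7.67 and 7.27 in WT pools, with no overlap (5.71-fold, adjusted p = 1.48e-06). Ccl4 rose 3.24-fold and Ccl9 2.5-fold (adjusted p = 0.00278 and 0.00097), and these 3 were the rises among 18 measured CC chemokines. Ccl2, the main monocyte chemokine, averaged 5.28 ± 0.72 in Tg and 3.86 ± 0.35 in WT pools, with overlap (adjusted p = 0.19). Of 9 other CXC and CX3C chemokines 2 rose. Cxcl16, a scavenger receptor that is also shed as a chemokine, averaged 8.01 ± 0.11 in Tg and 5.34 ± 0.78 in WT pools (6.34-fold, adjusted p = 2.8e-06), and Cxcl14 rose 2.33-fold (adjusted p = 0.0291), though it passed in 1 of the 8 fits that left out a pool. Among 20 chemoattractant receptors 2 rose, Ccrl2, a receptor that binds chemerin without signalling (3.94-fold, adjusted p = 5.86e-06), and Cxcr1 (1.88-fold, adjusted p = 0.0479, passing in 1 of 8 such fits). Cxcr2, a receptor of the neutrophil-attracting chemokines, read 7.02, 5.63, 5.01 and 5.32 in Tg pools, against 6.89, 7.19, 6.97 and 6.45 in WT pools. Its groups overlap through Tg pool 1 alone (adjusted p = 0.137), and without that pool it passed.

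Of 24 inflammatory cytokines and their brakes, 5 rose (20.8%, against 1.47% of all genes at the same limit) and none (0) fell, with a median of 0.17. Il1b, the main secreted interleukin-1, averaged 8.87 ± 0.27 in Tg and 7.14 ± 0.33 in WT pools (3.31-fold, adjusted p = 0.00651). Tnf, an early cytokine of activated macrophages, averaged 8.60 ± 0.36 in Tg and 6.98 ± 0.53 in WT pools (3.08-fold, adjusted p = 0.000611). Il1rn, the antagonist that blocks the interleukin-1 receptor, rose as well, though by 1.7-fold from a high level (adjusted p = 0.00622). Lif, a cytokine of the interleukin-6 family, rose 2.97-fold and Il1f9, near background in WT pools, at least 2.56-fold (adjusted p = 0.0124 and 0.0461), and neither passed in all 8 fits without 1 pool (5 and 2 of 8). Both were lost without WT pool 1 and without WT pool 2. Il1a, at 10.15 to 10.96 in Tg pools and 9.43 to 10.00 in WT pools, did not pass (adjusted p = 0.173), nor did Il6, at 3.58 to 4.62 in Tg and 3.16 to 3.85 in WT pools (adjusted p = 0.73).

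The list of NF-kB targets and feedback genes had a median of 0.53 on the log2 scale over 21 measured members, 20 of which had a higher mean in Tg, and 6 rose. All 6 encode regulators that feed back on this pathway or bind its subunits or the proteins around it. Tnip3 averaged 6.78 ± 0.60 in Tg and 5.0 ± 0.90 in WT pools (3.45-fold, adjusted p = 0.00134), Bcl3 rose 2.05-fold (adjusted p = 0.00651) and Nfkbiz 1.95-fold (adjusted p = 0.005). These 3 passed in all 8 fits without 1 pool, while Nfkbia, the inhibitor that holds NF-kB in the cytoplasm (1.86-fold, adjusted p = 0.0139), Birc3 (1.67-fold, 0.0194) and Tnip1 (1.59-fold, 0.0192) passed in 5, 3 and 4. Tnip3 was lost in the fit on the 8 PND 10 arrays alone. The members past the limit fell to 2 without both pools numbered 4 and to 3 without WT pool 2. Of 27 genes of classical activation 8 rose, with a median of 0.66 and 24 means above 0. They include Acod1, Ccl3, Ccl4, Il1b and Tnf from above, and Hp, haptoglobin, which binds free haemoglobin, averaged 6.89 ± 0.48 in Tg and 3.83 ± 0.38 in WT pools, at least 8.3-fold (adjusted p = 3.74e-06). Socs3 (2.3-fold, adjusted p = 0.0206) and Gch1 (1.58-fold, 0.0339) completed the 8 and passed in 3 and 2 of the 8 fits without 1 pool. Socs3 has another feature on the array, which changed by 1.01 on the log2 scale without passing (adjusted p = 0.181).

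**Figure D2:**
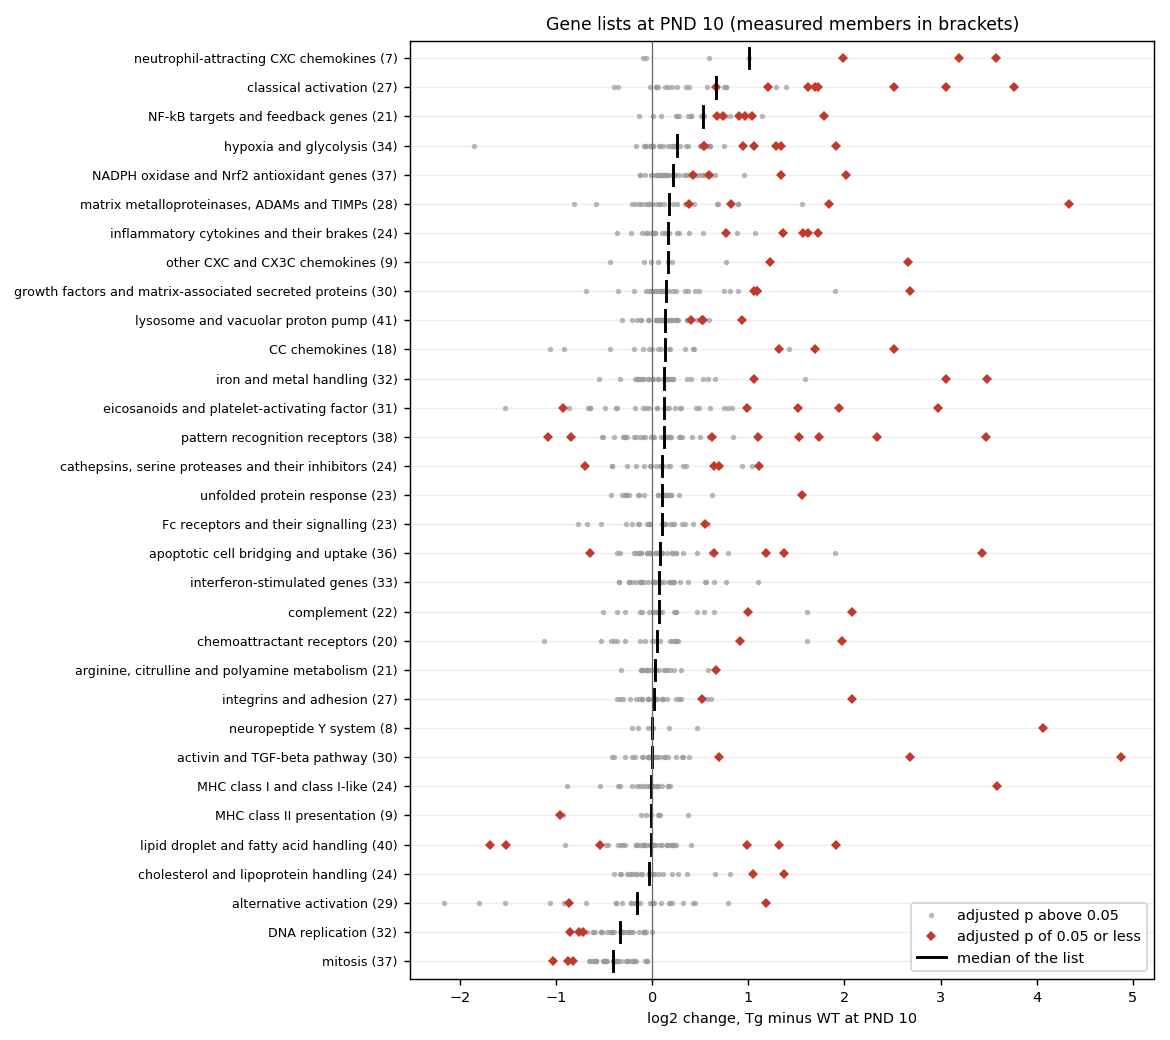
Change in Tg minus WT at PND 10 (log2) for each measured member of the 32 process lists, with members past an adjusted p of 0.05 as diamonds and a bar at the median of each list. The medians of classical activation (0.66) and of NF-kB targets (0.53) lie above 0 and those of mitosis (-0.41) and DNA replication (-0.33) below it, next to 0.01 for all features.

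Receptors for microbes and dying cells changed unevenly. Of 38 pattern recognition receptors 6 rose (15.8%, against 1.47% of all genes) and 2 fell (5.26%, against 0.569%). Clec4e, the C-type lectin Mincle, which binds mycobacterial glycolipid and a nuclear protein of dead cells, read 9.94, 9.83, 9.91 and 9.92 in Tg pools, against 6.79, 5.70, 7.46 and 5.76 in WT pools. The Tg pools agree to within 0.11 and the WT pools spread over 1.76 (11.1-fold, adjusted p = 3.48e-07). Its neighbour and partner Clec4d rose 5.07-fold (adjusted p = 1.1e-05). Cd14, the co-receptor that hands lipopolysaccharide to TLR4, read 9.40, 9.69, 9.59 and 9.60 in Tg pools, against 8.01, 7.74, 7.75 and 7.85 in WT pools, with 1.39 log2 units between the groups (3.32-fold, adjusted p = 2.34e-08). Colec12, a scavenger collectin, rose 2.88-fold (adjusted p = 0.000471), and Clec1b (2.14-fold) and Clec4n (1.54-fold) passed in 2 and 1 of the 8 fits without 1 pool. Tlr5, the flagellin receptor, fell to 5.64 ± 0.17 in Tg pools, against 6.73 ± 0.32 in WT pools (2.13-fold lower, adjusted p = 0.00137), and Clec2d fell 1.8-fold with overlap (adjusted p = 0.0446, in 2 of 8 such fits). Tlr2 and Tlr4 did not pass, at 9.36 ± 0.18 and 8.89 ± 0.12 in Tg pools and 9.05 ± 0.26 and 9.18 ± 0.18 in WT pools.

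Genes of matrix remodelling showed large changes in a few members rather than across their lists. Of 28 metalloproteinases, ADAMs and their inhibitors 4 rose (14.3%, against 1.47% of all genes), with a median of 0.17. Besides Mmp14, Mmp12, the macrophage elastase, read 10.29, 10.44, 10.57 and 10.57 in Tg pools, against 7.41, 9.0, 8.06 and 10.06 in WT pools. The Tg pools lie close together, and WT pool 4 came within 0.22 of the lowest Tg pool (3.57-fold, adjusted p = 0.00598). Mmp19 rose 1.76-fold with overlap (adjusted p = 0.0407, 2 of 8 fits without 1 pool), and Mmp10 stayed near background in both genotypes (0.38 on the log2 scale, adjusted p = 0.0204, 3 of 8). Timp1, an inhibitor of these enzymes, averaged 6.27 ± 1.01 in Tg and 4.71 ± 0.60 in WT pools and did not pass (adjusted p = 0.0624). Ctsk, a collagen-cleaving cathepsin, rose 2.16-fold (adjusted p = 0.012, in 6 of 8 fits without 1 pool), Ctsl, a lysosomal cathepsin, 1.62-fold (0.00424) and Serpinb6a, a serine protease inhibitor, 1.56-fold (0.000711), while Serpinb1a, an inhibitor of neutrophil elastase, fell 1.62-fold (0.0204, in 4 of 8). Of 30 activin and TGF-beta pathway genes 3 rose, Inhba, Fstl1, a follistatin-like secreted glycoprotein (6.4-fold, adjusted p = 1.86e-05), and Tgif1, a repressor of TGF-beta target genes (1.62-fold, 0.00249). The median of that list was 0.00, and Tgfb1 averaged 9.70 ± 0.15 in Tg and 9.74 ± 0.16 in WT pools (adjusted p = 0.975). Among 30 growth factors and secreted matrix-associated proteins Fstl1, Vegfa, Pdgfb and Gpnmb rose, the last, a transmembrane glycoprotein of lipid-laden macrophages, to 10.84 ± 0.11 in Tg pools, against 9.75 ± 0.23 in WT pools (2.12-fold, adjusted p = 4.78e-06).

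In the handling of dead cells and of iron, single genes stood out. Mfge8, the secreted bridge between phosphatidylserine on dying cells and integrins on phagocytes, read 9.78, 10.18, 10.21 and 10.00 in Tg pools, against 6.15, 6.52, 6.24 and 7.56 in WT pools, with no overlap (10.8-fold, adjusted p = 2.34e-08). Its relative Edil3 passed at a level near background in both genotypes (0.64 on the log2 scale, adjusted p = 0.0293, in 3 of 8 fits without 1 pool). Msr1, scavenger receptor A, rose 2.27-fold (adjusted p = 0.00416) and Abca1, the cholesterol exporter, 2.59-fold (adjusted p = 1.1e-05), which makes 4 rises among 36 uptake genes. Pros1, protein S, a bridging ligand of the receptors Mertk and Axl, fell to 8.66 ± 0.12 in Tg pools, against 9.31 ± 0.13 in WT pools (1.57-fold lower, adjusted p = 0.0127, in 6 of 8 such fits). Mertk (adjusted p = 0.871) and Axl (0.479) did not pass. Slc11a1, the divalent metal pump of the phagosome, read 7.40, 7.99, 7.61 and 7.69 in Tg pools, against 4.12, 4.13, 4.58 and 3.94 in WT pools. The gap between the groups was larger than the spread within either (11.2-fold, adjusted p = 5.87e-07). Slc11a2, its endosomal relative, rose 2.08-fold (adjusted p = 0.0094, lost without WT pool 2), and with Hp these were the 3 rises among 32 iron and metal genes. Hmox1 and Fth1, which break down haem and store iron, did not pass (adjusted p = 0.312 and 0.23), and Lcn2, which binds iron-carrying siderophores, did not either (0.374), with 7.05 in Tg pool 1 but 4.36 to 4.84 in the other Tg pools and 3.24 to 4.14 in WT pools.

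Lipid genes moved in both directions. Of 40 lipid droplet and fatty acid genes 3 rose and 3 fell, with a median of -0.02. Hilpda, an inhibitor of triglyceride breakdown that hypoxia induces, averaged 6.89 ± 0.45 in Tg and 4.98 ± 0.38 in WT pools (3.76-fold, adjusted p = 0.00107), Pdk4, a brake on glucose oxidation, rose 2.5-fold (0.0248, in 2 of 8 fits without 1 pool) and Acsl4, which activates arachidonic acid, 1.97-fold (7.36e-05). G0s2, another inhibitor of triglyceride breakdown, read 4.90, 6.87, 6.43 and 6.17 in Tg pools, against 7.95, 7.92, 7.66 and 7.61 in WT pools, without overlap (3.22-fold lower, adjusted p = 0.00562). Cidec, which fuses lipid droplets, read 8.28, 8.58, 8.27 and 7.67 in Tg pools, against 9.60, 9.94, 9.75 and 9.59 in WT pools (2.87-fold lower, adjusted p = 0.00388). Hilpda and G0s2, a pair that act on the same lipase, thus changed in opposite directions. Plin2, which coats lipid droplets, averaged 10.08 ± 0.12 in Tg and 10.04 ± 0.21 in WT pools (adjusted p = 0.964). Of 24 cholesterol and lipoprotein genes Abca1 and Apoc2 (1.05 on the log2 scale, adjusted p = 0.0101) rose.

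Among 31 genes of eicosanoids and platelet-activating factor 4 rose and 1 fell. Pla2g7, which destroys platelet-activating factor, averaged 8.81 ± 0.20 in Tg and 5.83 ± 0.91 in WT pools (7.88-fold, adjusted p = 0.000112), and Lpcat2, which makes it, averaged 7.55 ± 0.22 in Tg and 5.60 ± 0.23 in WT pools (3.85-fold, adjusted p = 5.86e-06). The enzymes of synthesis and breakdown of this lipid rose together. Ephx1, an epoxide hydrolase, rose 2.87-fold (adjusted p = 0.0025) and Ptgr1, which inactivates prostaglandins and leukotriene B4, 1.98-fold (0.00244). Ltc4s, the synthase of leukotriene C4, fell 1.9-fold (adjusted p = 0.0252), with Tg pool 1 at 7.81 and the other Tg pools at 9.28 to 9.44, against 9.69 to 10.07 in WT pools. Alox5, upstream of it, had all Tg pools below all WT pools but did not pass (adjusted p = 0.0856).

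Antioxidant and glucose genes rose in part. Of 37 NADPH oxidase and Nrf2 antioxidant genes 4 rose and 32 had a higher mean in Tg, with a median of 0.22. Slc7a11, the cystine importer that feeds glutathione synthesis, averaged 10.14 ± 0.19 in Tg and 8.12 ± 0.61 in WT pools (4.05-fold, adjusted p = 7.36e-05). Srxn1, sulfiredoxin, rose 2.54-fold (adjusted p = 2.89e-06), Txnrd1, thioredoxin reductase, 1.51-fold (0.00342) and Pgd, of the pentose phosphate pathway, 1.34-fold (0.0481, in 1 of 8 fits without 1 pool). Of 34 hypoxia and glycolysis genes 7 rose, with a median of 0.26 and 27 means above 0. Slc2a1, the glucose transporter GLUT1, averaged 9.21 ± 0.17 in Tg and 7.92 ± 0.18 in WT pools (2.45-fold, adjusted p = 2.42e-05). Vegfa, whose WT mean of 3.65 was near background, rose at least 2.08-fold and Epas1, the transcription factor HIF-2 alpha, 2.53-fold (adjusted p = 0.00118 and 0.0105). Hk2 (1.93-fold), Hif1a (1.46-fold) and Slc16a3 (0.54 on the log2 scale) passed in at most 2 of the 8 fits without 1 pool, and the 7 came down to 3 without Tg pool 4, where Epas1 was lost as well. Gapdh did not pass, at 11.93 ± 0.11 in Tg and 11.86 ± 0.11 in WT pools (adjusted p = 0.755).

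Smaller changes touched the phagosome and the cell surface. Itgam, the integrin CD11b and complement receptor, read 8.79, 8.62, 8.53 and 8.73 in Tg pools, against 6.56, 6.25, 5.93 and 7.61 in WT pools (4.22-fold, adjusted p = 0.00412). With Cfb, factor B of the alternative complement pathway (2-fold, adjusted p = 0.000149), it made the 2 rises among 22 complement genes. Of 41 lysosome and proton pump genes 34 had a higher mean in Tg, by a median of 0.14, and 4 rose, none by 2-fold, among them Mcoln2, an endolysosomal channel (0.93 on the log2 scale, adjusted p = 2.81e-05), and Atp6v1a, a subunit of the proton pump (0.53, 0.00187). Cd63 and Atp6v1d, the other two, passed in 2 of 8 fits without 1 pool. Of 23 Fc receptor genes the 1 rise was that of Lilrb4a, an inhibitory receptor (0.55, adjusted p = 0.00668). Of the 33 interferon-stimulated genes 0 rose and 0 fell, against 1.47% and 0.569% of all genes, with a median of 0.07. At those shares a list of this size would hold few or none, and 10 of the 33 were near background in both genotypes. Of 9 measured genes of class II presentation, H2-DMa, which loads peptide, fell 1.94-fold (adjusted p = 0.0297, in 3 of 8 fits without 1 pool) and 8 did not pass.

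Falls were fewer and smaller than rises. Inka1, an inhibitor of the kinase PAK4, read 4.71, 4.11, 4.13 and 4.24 in Tg pools, against 6.54, 6.56, 5.95 and 5.78 in WT pools (3.76-fold lower, adjusted p = 2.8e-05). Rab44, a large Rab GTPase, averaged 6.15 ± 0.16 in Tg and 7.57 ± 0.13 in WT pools (2.67-fold lower, adjusted p = 0.000167). Csf3r, the receptor of granulocyte colony-stimulating factor, read 6.11, 5.76, 5.74 and 5.0 in Tg pools, against 7.67, 6.95, 6.93 and 6.14 in WT pools. The lowest WT pool lay 0.03 above the highest Tg pool, and the pools numbered 4 were the lowest of both genotypes (2.41-fold lower, adjusted p = 0.00802, in 6 of 8 fits without 1 pool). Klk8, a secreted serine protease (2.31-fold lower, adjusted p = 0.0078), and Kcnh4, a potassium channel (2.26-fold lower, 0.00265), passed in all 8 fits. Prr5l, a partner of the mTORC2 complex (2.3-fold lower, adjusted p = 0.0371), overlapped between the genotypes and passed in 2 of 8, and Igflr1 (2.17-fold lower, 0.0424) passed in 1 of 8. Of the 12 largest falls, 8 passed in all 8 fits and 11 had pools that do not overlap. G0s2 and Kcnh4, which passed in all 8, were lost in the fit on the 8 PND 10 arrays alone.

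Alveolar macrophage identity genes were split. Of 33 measured 5 fell (15.2%, against 0.569% of all genes) and none (0) rose, with a median of -0.13, and 10 had all Tg pools below all WT pools, as did 2.9% of all features. Cd2, a T cell adhesion receptor that the list holds because alveolar macrophages of mice carry its transcript, read 8.13, 8.91, 8.32 and 8.50 in Tg pools, against 9.62, 9.95, 9.86 and 9.68 in WT pools (2.49-fold lower, adjusted p = 0.00113). Krt79 (2.61-fold lower, adjusted p = 0.0331) and Krt19 (1.71-fold lower, 0.0138), both keratins, Ltc4s and Pparg, the transcription factor that sets this cell's identity (1.46-fold lower, 0.0424), were the other falls. Cd2 passed in all 8 fits without 1 pool, while the other 4 did not, and without WT pool 2 Cd2 alone of the 5 remained. Siglecf, the surface lectin used to gate these cells, read 8.70 to 8.85 in Tg pools and 9.07 to 9.55 in WT pools, which do not overlap, but did not pass (adjusted p = 0.236), nor did Fabp1, at 9.01 to 9.61 in Tg and 9.84 to 10.22 in WT pools (0.362). In bulk RNA such as this, fewer cells of a type and less RNA per cell cannot be told apart.

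Genes of cell division leaned lower in Tg. All 37 measured mitosis genes had a lower mean in Tg pools, with a median of -0.41, and 31 of 32 DNA replication genes did, with a median of -0.33. The mean over the mitosis list was 6.22 to 6.73 in Tg pools and 6.69 to 7.21 in WT pools, which overlap slightly, and over the replication list 6.28 to 6.54 in Tg and 6.59 to 6.99 in WT pools, which do not. In each list 3 members fell, 8.11% of the mitosis and 9.38% of the replication genes, against 0.569% of all genes. They were Haspin, the kinase of histone H3 in mitosis (2.04-fold lower, adjusted p = 0.00609), Arhgef39 (1.84-fold lower, 0.0249) and Anln, anillin of the cleavage furrow (1.77-fold lower, 0.0469), and for replication Cdt1, which licenses origins (1.8-fold lower, 0.0396), Mcm10 (1.69-fold lower, 0.00955) and Dna2, a nuclease and helicase (1.65-fold lower, 0.0258). Haspin passed in all 8 fits without 1 pool and the other 5 in 3 to 5. Without WT pool 2, Haspin alone of the 6 passed. Mki67, at 8.58 ± 0.33 in Tg and 8.64 ± 0.15 in WT pools (adjusted p = 0.965), and Pcna, at 10.47 ± 0.18 in Tg and 10.56 ± 0.11 in WT pools (0.821), both markers of cycling cells, did not pass.

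Alternative activation held 1 rise, Msr1, and 1 fall, Flt1, a receptor of VEGF (1.83-fold lower, adjusted p = 0.0232, in 4 of 8 fits without 1 pool), among 29 genes, with a median of -0.16. Several of its genes varied more between pools than between genotypes. Retnla, a secreted protein that interleukin-4 and interleukin-13 induce, read 3.37, 4.17, 4.41 and 7.42 in Tg pools, against 4.74, 7.04, 5.75 and 9.07 in WT pools. Rnase2a, an eosinophil-associated ribonuclease, read 3.97, 4.46, 7.09 and 10.01 in Tg pools, against 6.08, 8.87, 8.0 and 11.24 in WT pools. Fbp1, an enzyme of gluconeogenesis chosen after its values were seen, read 3.79, 3.63, 4.79 and 8.04 in Tg pools, against 5.44, 7.59, 5.29 and 9.33 in WT pools. In all 3 genes pool 4 was the highest of its group in both genotypes, and the groups overlap. None of the 3 passed with all pools in the main fit (adjusted p = 0.293, 0.27 and 0.234), while all 3 passed as lower in Tg without Tg pool 4. Rnase2a and Fbp1 also passed as lower without both pools numbered 4, and with all pools in a fit that took the pool number into account. Ccl17, Ccl24 and Alox15, which interleukin-4 and interleukin-13 also induce, and Prg2, a granule protein of eosinophils, were likewise highest in the pools numbered 4 and did not pass (adjusted p = 0.579, 0.768, 0.268 and 0.459). In the study's cell counts at PND 10, eosinophils appeared in some Tg fractions and in no WT fraction. Which cells made these transcripts was not tested. Arg1, arginase, read 5.77 to 8.87 in Tg and 5.80 to 8.70 in WT pools (0.969), and Mrc1, the mannose receptor, averaged 10.78 ± 0.12 in Tg and 10.91 ± 0.03 in WT pools (0.73). The correlation of deviations from the group mean between the pools numbered 4 was 0.24 over all features, and the labels do not say that a number marks a shared litter or day.

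**Figure D3:**
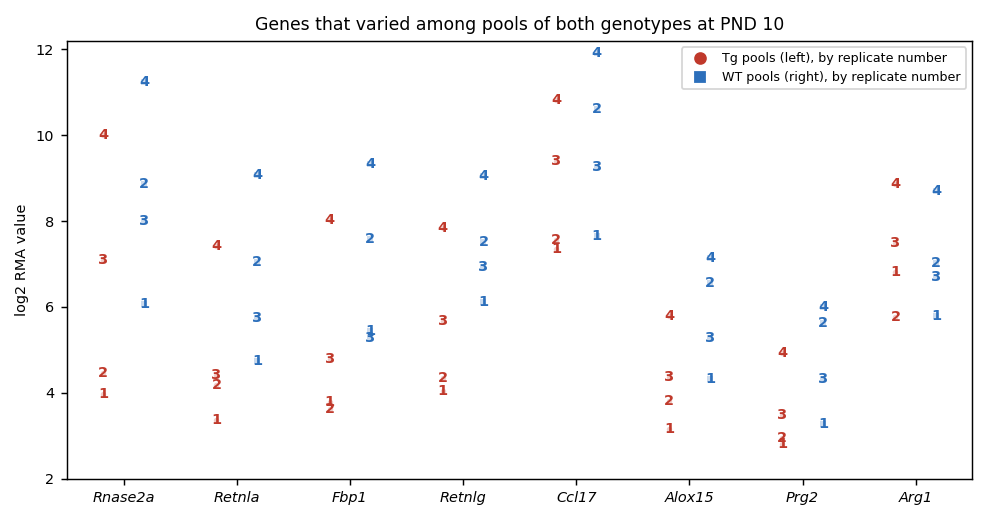
Log2 level of 8 genes in each PND 10 pool, Tg pools to the left and WT pools to the right of each gene, each point drawn as its pool number. In Rnase2a the pools numbered 4 read 10.01 in Tg and 11.24 in WT, and pools 1 read 3.97 in Tg and 6.08 in WT, so that the spread within a genotype exceeds the difference between genotypes. The 8 genes were chosen after their values were seen.

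Markers of other cells were measured beside these results. For neutrophils, which the Ly-6G step was meant to remove, 13 of 30 measured genes were near background in both genotypes, and the mean over the list was 4.60 to 5.18 in Tg pools and 4.55 to 4.83 in WT pools. The study also counted cells after purification. At PND 10 it found a few percent of neutrophils and of eosinophils in some Tg fractions and neither in the WT fractions. The share of macrophages was lower in the counted Tg fractions than in the WT fractions. Near background were the granule genes Mpo, Elane, Prtn3, Ctsg, Ngp, Ltf and Camp, 7 in all, with group means of 2.89 to 3.46 in Tg and 2.86 to 3.53 in WT pools. These 7 genes do not by themselves show how many neutrophils remained. Well above background was S100a8, an abundant calcium-binding protein of neutrophils and monocytes, at 10.24 ± 0.35 in Tg and 9.60 ± 0.65 in WT pools, with overlap (adjusted p = 0.445), and its partner S100a9 averaged 6.82 ± 1.35 in Tg and 7.23 ± 1.28 in WT pools (0.939). Of the 30, Clec4d and Cxcr1 rose and Csf3r fell, and 5 (Clec4d, Cxcr1, Lcn2, Chil1 and Prok2) had all Tg pools above all WT pools, as did 4.17% of all features. The monocyte and interstitial macrophage list had 3 rises among 31 genes, Cd14, Itgam and Ccl9, with means of 5.62 to 5.83 in Tg and 5.35 to 5.51 in WT pools. Eosinophil markers, 11 genes of which 4 were near background, ranged from 4.23 to 5.40 in Tg and from 4.47 to 5.82 in WT pools. Among epithelial lists, the 10 alveolar type 1 genes averaged 5.35 to 5.48 in Tg and 4.71 to 4.85 in WT pools and the 14 alveolar type 2 genes 5.03 to 5.19 in Tg and 4.67 to 4.78 in WT pools, and neither pair of ranges overlaps. Pdpn, a mucin-like protein that macrophages can also make (6.24-fold, adjusted p = 5.63e-05), and Vegfa rose in the first list and Cldn18, a tight junction protein, in the second (2.25-fold, adjusted p = 0.0054). All Tg pools were above all WT pools for 4 of the type 1 and 5 of the type 2 genes. Of the defining genes of type 1 cells, Ager averaged 5.08 ± 0.45 in Tg and 4.57 ± 0.25 in WT pools, with overlap (adjusted p = 0.343). Aqp5 averaged 3.97 ± 0.07 in Tg and 3.39 ± 0.18 in WT pools, without overlap (adjusted p = 0.181), and Rtkn2 3.79 in Tg and 3.80 in WT pools. Sftpd and Lamp3 of type 2 cells were near background in both. Sftpc, the most abundant surfactant gene of type 2 cells, averaged 7.95 ± 0.86 in Tg and 7.12 ± 0.46 in WT pools. Its groups overlap and it did not pass (adjusted p = 0.421), and Tg pool 1 was the highest at 9.085. Genes of early response and of dissociation, 18 in number, averaged 6.16 to 6.55 in Tg and 5.84 to 5.97 in WT pools, and Atf3, Egr1, Socs3, Junb and Jun rose (2.95-, 2.59-, 2.3-, 1.77- and 1.62-fold), of which Atf3 and Egr1 passed in all 8 fits without 1 pool. Atf3 was lost in the fit on the 8 PND 10 arrays alone. The part of these cells or of handling in the changes above was not tested.

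**Figure D4:**
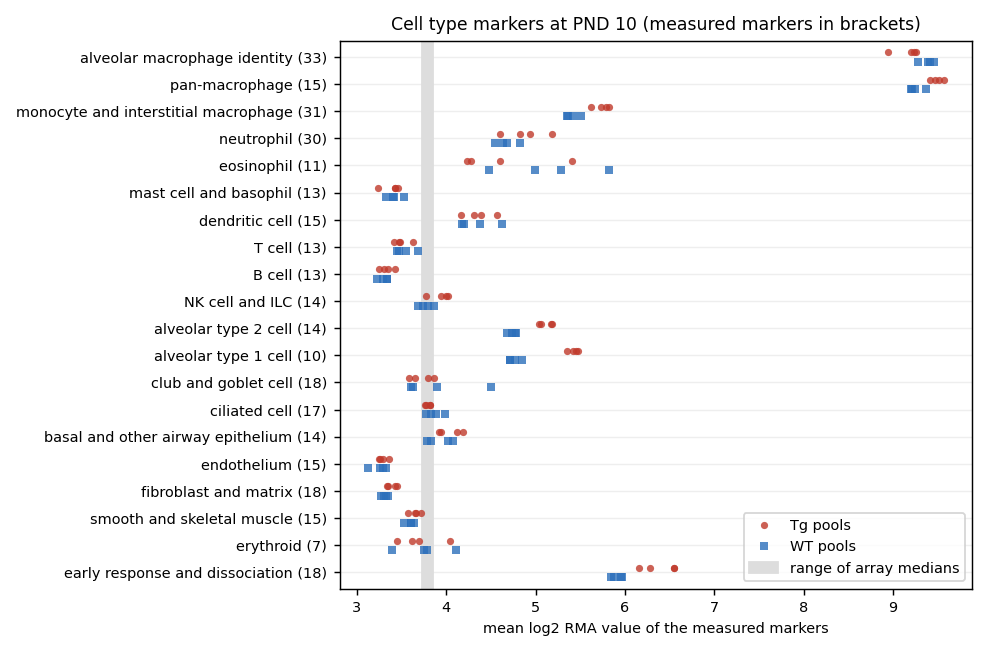
Mean log2 level of the measured genes of each of 20 cell type lists in each PND 10 pool, Tg points above WT points, with a grey band for the array medians (3.73 to 3.85). Alveolar macrophage identity lies at 8.95 to 9.26 in Tg and 9.28 to 9.46 in WT pools, and the lists of T cells, B cells and endothelium lie at or below the band.

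The same genotype comparison at PND 3 and PND 42 shows where PND 10 stood between them. The PND 3 arrays were pools of pups like those of PND 10, and the PND 42 arrays were single mice, so that age and pooling cannot be told apart in the second comparison. At PND 3, 331 features (1.14%) were called higher and 74 (0.256%) lower in Tg, and at PND 42, 364 (1.26%) higher and 106 (0.366%) lower. Of the 163 rises of PND 10, 114 were also called higher at PND 3, which is 69.9% of the rises of PND 10 and 34.4% of those of PND 3, and 88 were called higher at PND 42, which is 54.0% of the rises of PND 10 and 24.2% of those of PND 42. The comparisons share no arrays, but they share the variance estimate of each feature, so that their calls are not independent. Called at neither other age were 30 of the 163 rises and 8 of the 21 falls. Missing the limits at another age is not a tested difference between ages, which the contrasts below give.

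Against PND 3, the genotype effect itself differed for 15 features (0.0518% negative, that is, a lower effect at PND 10) and for none (0) in the positive direction. The 6 largest of these differences were those of genes on the neutrophil list. Il1r2, a decoy receptor of interleukin-1, averaged 6.81 ± 0.90 at PND 3 in Tg pools, against 3.54 ± 0.84 in WT pools, and 3.50 ± 0.29 at PND 10 in Tg pools, against 3.22 ± 0.23 in WT pools, so that the effect at PND 10 was lower by 2.99 on the log2 scale (adjusted p = 0.00805). Olfm4, a granule protein, was lower in effect by 2.85 (adjusted p = 0.00766) and Prok2, a secreted chemoattractant, by 2.39 (0.00598). Chil1, a chitinase-like protein, Stfa3, a stefin with near-identical copies whose probes may not tell them apart, and Asprv1, a retroviral-like protease, differed by -3.48, -3.98 and -2.97 (adjusted p = 0.0336 each). Vegfa and Nfkbiz, which did rise at PND 10, rose less than at PND 3 (differences of -1.62 and -1.38, adjusted p = 0.00766 and 0.0487). This count depends on the samples. It was 6 to 50 over the fits that left out 1 of the 16 arrays, 50 of them without WT PND 3 pool 1 and 45 without Tg PND 3 pool 4, and 0 in a fit on those 16 arrays alone.

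Against PND 42, 101 features (0.349%) had a lower and 44 (0.152%) a higher genotype effect at PND 10. The 3 largest negative differences were those of Rnase2a, Fbp1 and Retnla, which varied among pools. Rnase2a averaged 10.20 ± 1.14 in Tg and 3.04 ± 0.16 in WT mice at PND 42, whereas its mean at PND 10 was 6.38 ± 2.78 in Tg and 8.55 ± 2.14 in WT pools, a difference in effect of -9.32 (adjusted p = 2.37e-05). Fbp1 differed by -6.91, Retnla by -6.53 and Ccl24 by -5.38 (adjusted p = 9.09e-05, 0.000452 and 0.0134). Rbp4, which carries retinol, and Awat1, which makes wax esters, rose at PND 42, to 9.12 ± 0.54 and 10.18 ± 0.29 in Tg mice, against 3.56 ± 0.21 and 4.54 ± 0.54 in WT mice, but not at PND 10 (differences of -6.17 and -5.41, adjusted p = 7.13e-08 and 4.58e-05). In the other direction, Clec4e averaged 7.23 ± 0.08 in Tg and 7.27 ± 0.19 in WT mice at PND 42, so that its rise at PND 10 was larger by 3.51 (adjusted p = 0.000118). Cd14 was lower in Tg than in WT mice at PND 42 (7.78 ± 0.21 against 8.43 ± 0.07) and higher at PND 10, a difference of 2.38 (adjusted p = 7.13e-08), and Stap1, a signalling adaptor, turned in the same way (2.48, 9.45e-07). The rises of Hp and Mmp14 were larger at PND 10 by 2.64 and 2.49 (adjusted p = 0.00808 and 0.0298), and Nt5e, the ecto-enzyme CD73, was lower at PND 42 in Tg and did not pass at PND 10 (2.59, adjusted p = 0.000196).

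**Figure D5:**
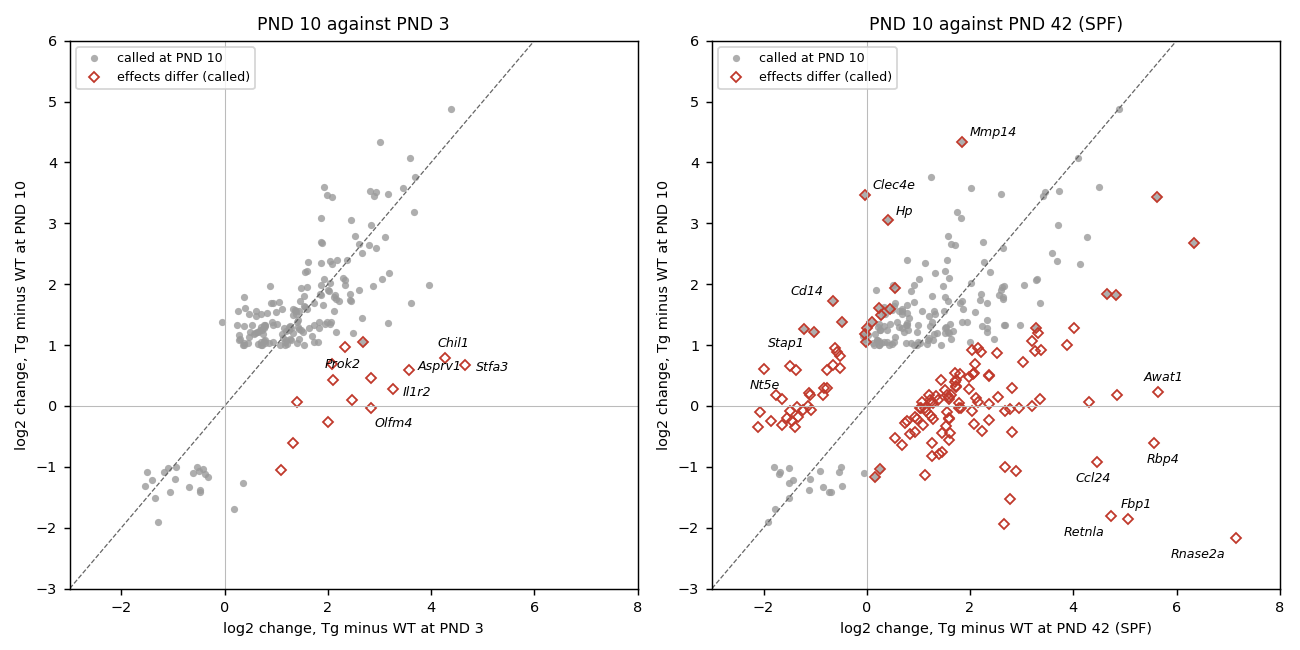
Change in Tg minus WT at PND 10 (vertical, log2) against that at PND 3 (left) and at PND 42 in SPF housing (right). Grey points were called at PND 10, red diamonds mark features whose effects differ between the ages (15 and 145), and the dashed line marks equal effects. Rnase2a lies lowest on the right, with an effect of -2.17 at PND 10 and 7.15 at PND 42.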

How the data were processed

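The arrays were of the type Mouse Gene 1.0 ST (Affymetrix) and held lavage macrophage RNA. The authors deposited log2 values, which the submitters' processing notes credit to RMA in Partek 6.5 (a background step that uses probe sequence, then quantile normalization, then median polish), with 1 value per transcript cluster. RMA shrinks changes near background. Of 35556 features, 6616 presumed array controls were left out. Of the 28940 analysed, 21218 had 1 gene symbol, 1881 several and 5841 none. Features with several symbols were counted but not named, and where several features carry a symbol the brightest stands for the gene. No column went unused (0 columns).

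The labels for genotype, age and housing gave the groups. In R 4.3.3, limma 3.58.1 fitted 1 mean to each group over the 36 arrays, and two-sided moderated tests were adjusted over features by Benjamini-Hochberg. A call needed an adjusted p of 0.05 and 2-fold. Interaction contrasts compared the genotype effect at PND 10 with those at PND 3 and PND 42. The procedure was tested on simulated data. Where nothing says that pools came from separate litters, the p-values measure only the spread between these samples.

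Named were the 20 largest rises and 12 largest falls among called features with 1 symbol, up to 6 members past the limit of each list described, members needed to show what did not pass, Scnn1b, Scgb1a1 and the 6 largest of each sign in each interaction. The members, the 52 gene lists and the tests were chosen with earlier results of these data known. Promoter windows came from RefSeq tables for GRCm38.p6. Alternatives were the limits, array weights, renormalization, median centring, other variance priors, a replicate block, fewer features, the compared arrays alone and each array left out.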

Additional observations from a re-analysis of the deposited data

Results flagged for a closer look

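Of 314 groups of 4 pools tested, 16 had 1 pool far from the other 3 by Dixon's ratio of gap to range, and chance alone marks about 1 in 20. In Tg pool 1, Pmp22 (8.99), Ccrl2 (8.25) and Chil1 (5.54) were high and Ltc4s (7.81), Cdt1 (5.65) and Atp6v1a (9.36) low. Acsl4 was low in Tg pool 3 (7.92), and in Tg pool 4 Awat1 was high (7.50) and Apoc2 low (5.62). In WT pool 1 Car4 (10.90) and Fabp1 (9.84) were low. In WT pool 3 Igflr1 was high (6.95) and Pros1 low (9.12). In WT pool 4 Pdk4 (6.37) and Rbp4 (6.10) were high and Gpnmb low (9.4). Chil1 in Tg pool 1 stood 2.14 log2 units above the other Tg pools, which read 3.29 to 3.40, against 2.95 to 3.18 in WT pools.

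Genotype effects that differed between ages in the limma interaction test were marked as well. The effect at PND 10 minus that at PND 3 was -3.98 for Stfa3, -3.48 for Chil1, -2.99 for Il1r2, -2.97 for Asprv1, -2.85 for Olfm4 and -2.39 for Prok2. The effect at PND 10 minus that at PND 42 was -9.32 for Rnase2a, -6.91 for Fbp1, -6.53 for Retnla, -6.17 for Rbp4, -5.41 for Awat1 and -5.38 for Ccl24. It was 3.51 for Clec4e, 2.64 for Hp, 2.59 for Nt5e, 2.49 for Mmp14, 2.48 for Stap1 and 2.38 for Cd14.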

How the results depend on the processing

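The count of called features at PND 10 (184) stayed within 1.5 times under every alternative but the adjusted p alone, which gave 453 (327 higher and 126 lower, 72.2% higher against 88.6%). It ran from 146 without WT pool 2 to 212 without WT pool 4 over the fits without 1 pool, and was 186 without both pools numbered 4. The count against PND 3 (15) was less stable: 6 at an adjusted p of 0.01, 6 without moderation, 6 with control features kept, 25 with a filter on low values, 39 with array weights, 0 in a fit on the 16 compared arrays alone, 3 with the replicate block and 6 to 50 over the fits without 1 array. The cause was not tested. The count against PND 42 (145) was 71 at an adjusted p of 0.01 and 99 to 163 over the fits without 1 array. Of the 157 named genes, none (0) of the 114 that passed changed sign in any alternative, and 10 of the 43 that did not pass did. Of the 114, 69 passed in all 8 fits without 1 pool; 40 were lost without WT pool 2, 33 without Tg pool 4, 34 in a fit on the 8 arrays alone and 31 without both pools numbered 4. The fits without 1 pool keep the arrays of the other groups. G0s2, Kcnh4, Tnip3, Mmp12, Serpinb6a, Txnrd1, Atf3, Cldn18 and Atp6v1a passed in all 8 of them but not with the 8 arrays alone. The labels do not say whether replicate numbers pair these pools. Correlations of deviations were 0.01, 0.03, -0.02 and 0.24 for numbers 1 to 4, against -0.17 to 0.15 for pools of unlike number. With the number as a replicate block 171 features were called, 163 of them among the 184, and 24 named genes were lost. In that fit Rnase2a (-2.17 on the log2 scale, adjusted p = 0.0241) and Fbp1 (-1.85, 0.0249) passed as lower in Tg with all pools kept, while Retnla did not (-1.81, 0.0866). Renormalization moved the median change of all features from 0.01 to -0.00248 and median centring to -0.0194, so that a change of that size has no settled direction. Depth here is signal over background: folds of genes near 3.85 may be understated, apart from the error of the estimate.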
